A study of Mus musculus with 7 samples.

Results

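The claudin genes of the mouse seminal vesicle were followed in single cells. The 8 genes *Cldn1*, *Cldn3*, *Cldn4*, *Cldn5*, *Cldn7*, *Cldn8*, *Cldn10* and *Cldn12* were taken by their symbols, with earlier results of these data known. They are 8 of the 30406 genes present in every matrix, of which 32 carry a claudin symbol. Together they gave 298635 unique molecular identifiers (UMIs, each standing for one captured RNA molecule) in 40306 cells that passed the filters. *Cldn4* alone gave 157500 of these UMIs, *Cldn3* gave 56465 and *Cldn7* gave 42205. *Cldn1* gave 21204, *Cldn10* gave 8370, *Cldn8* gave 6781, *Cldn5* gave 5390 and *Cldn12* gave 720.

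Claudins are small membrane proteins with several membrane-spanning segments that polymerise into the strands of tight junctions, the seals between neighbouring cells of an epithelium or of a vessel wall. Barrier-forming claudins tighten the paracellular space, others form pores for selected ions, and the mixture a cell makes sets how leaky its junctions are. In glands of the male tract, tight junctions between luminal cells separate the secreted fluid from the tissue, and basal cells lie beneath that seal.

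Wild-type male mice were used throughout. The aging pool held 10 C57BL/6J mice on chow, with 2 mice at 3 months, 2 at 20 months and 2 at 28 months, plus 2 rapamycin-treated mice at each of the 20- and 28-month ages. The diet pool held 8 FVB/NJ mice of 3 months, 2 each on control diet, on caloric restriction, on a high fat and on a low protein diet, and 3 further FVB/NJ mice of 3 months on control, high fat and low protein diets were run as single-mouse libraries. In the young individual (3 months) and the old individual (18 months), both FVB/NJ on control diet, each mouse was also a library of its own. The mice inside a pool were assigned to their condition by the sample names in the deposited multiplexing configuration, matched to the study's list of animals. Strain, pool and most of the age range cannot be told apart, and a single-mouse library cannot be told apart from the way it was run.

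Cells were classed by genes other than claudins. Secretory cells had at least 20% of their UMIs from 7 *Svs* genes, which encode the bulk proteins of seminal vesicle fluid. Prostate-like cells were defined by *Tgm4* and *Pbsn*, basal cells by the keratins *Krt5* and *Krt14*, endothelial cells by *Pecam1*, and stromal and immune cells by collagen, muscle and leukocyte genes. The young and old individuals held no secretory and no prostate-like cells by these rules. Of their 18268 cells, 3884 met a rule of epididymal secretory genes, here called principal-like, 352 met a rule of proton pump genes, here called clear-like, and 7456 met none. Their claudins are given apart for that reason, and the class tests used the other 21 mice. Of markers not used in the rules, 6 of 6 were highest in their own class for secretory, basal, endothelial, stromal and immune cells of the 21 mice. For prostate-like cells 5 of 7 were, with *Spink5* and *Spinkl* as the exceptions. For principal-like cells 5 of 6 were, with *Crisp1* as the exception. For clear-like cells only 3 of 6 were highest, *Slc26a4* and *Foxi2* stood at 0 and *Car12* was higher in basal cells, so that name rests on the proton pump genes.

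Kept UMIs per mouse ran from 971402 to 14720617 in the pools and from 24806120 to 46326504 in the single-mouse libraries. No cell barcode was shared between mice of one pool, and 6 to 30 barcodes were shared between any pair of libraries. Levels are given as CPM, a gene's UMIs for each 1000000 UMIs of the class in that mouse, and were tested only where a mouse had at least 10 cells of the class. Each UMI marks the 3′ end of one molecule, so CPM were not divided by gene length. Counts here cover 9648 secretory, 495 prostate-like, 1838 basal, 452 endothelial, 356 stromal and 1812 immune cells of the 21 mice.

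*Cldn4*, a strand claudin that is also a receptor for a clostridial toxin, was the claudin with most UMIs in basal and prostate-like cells of every mouse tested and in secretory cells of the 18 pool mice. In secretory cells of the 3 single-mouse libraries *Cldn3* exceeded it. In basal cells its level ran from 1671 to 4944 CPM with a median of 3238 (19 mice). In prostate-like cells it ran from 875 to 2401 CPM around a median of 1668 (12 mice), and in secretory cells from 141 to 981 CPM around a median of 442 (21 mice). In CPM, basal and secretory levels of *Cldn4* did not overlap. Basal exceeded secretory in 19 of 19 mice, and prostate-like cells exceeded secretory in 12 of 12. With *Svs* UMIs left out of the total, these counts were 17 of 19 and 10 of 12. Immune cells, which should lack *Cldn4*, held a median of 33.8 CPM, with a range from 0 to 283. *Cldn4* made up a median over mice of 73.4% of the UMIs of the 8 claudins in basal cells (66.3% to 77.5%), 62.1% in prostate-like cells (50.4% to 71.0%) and 52.3% in secretory cells (37.5% to 59.2%).

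*Cldn3*, the neighbour of *Cldn4* on the chromosome and its close relative, had another order. Its level was 310 to 556 CPM in prostate-like cells, with a median of 422. It was 149 to 485 CPM in secretory cells, with a median of 259. In basal cells it was 45.8 to 224 CPM with a median of 77.7. *Cldn3* was lower in basal than in secretory cells of 19 of 19 mice, although the ranges over all mice overlapped. It made up a median over mice of 29.0% of the claudin UMIs of secretory cells (21.9% to 42.7%) and 2.25% of those of basal cells (0.920% to 5.80%).

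*Cldn4* and *Cldn3* are single-exon genes on opposite strands of chromosome 5 (GRCm38), *Cldn4* at chr5:134945119-134946934 on the minus strand and *Cldn3* at chr5:134986214-134987472 on the plus strand. The gap between them is 39279 bases, and the GENCODE annotation lists 0 genes within it. *Cldn3* overlaps *Wbscr25*, an antisense gene. *Cldn1* (chr16:26356642-26371841, minus strand) and *Cldn5* (chr16:18776847-18778262, plus strand) lie on chromosome 16. The 250 bases upstream of the RefSeq start of these genes (GRCm38.p6) are printed 5′ to 3′ on the gene's strand, because the neighbours *Cldn4* and *Cldn3* differ in class and *Cldn1* and *Cldn5* mark basal and endothelial cells. The windows are chr5:134946935-134947184 (minus) for *Cldn4*, chr5:134985964-134986213 (plus) for *Cldn3*, chr16:26371840-26372089 (minus) for *Cldn1* and chr16:18776597-18776846 (plus) for *Cldn5*. Capitals mark matches, on either strand, to 7 short motifs. The motifs were a GC box with the letters GGGCGG, an E-box with the letters CAGGTG and an AP-1 site with the letters TGANTCA, in which N is any base. Also searched were the androgen receptor hexamer AGAACA, the TATA box with the letters TATAAA, the site of GATA factors with the letters AGATAA and an ETS site with the letters CAGGAA.
Cldn4: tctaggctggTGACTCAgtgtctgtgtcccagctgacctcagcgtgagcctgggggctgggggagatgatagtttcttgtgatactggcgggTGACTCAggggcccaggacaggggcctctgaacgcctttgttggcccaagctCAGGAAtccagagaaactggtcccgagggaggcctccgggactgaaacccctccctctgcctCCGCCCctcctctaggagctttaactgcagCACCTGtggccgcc
Cldn3: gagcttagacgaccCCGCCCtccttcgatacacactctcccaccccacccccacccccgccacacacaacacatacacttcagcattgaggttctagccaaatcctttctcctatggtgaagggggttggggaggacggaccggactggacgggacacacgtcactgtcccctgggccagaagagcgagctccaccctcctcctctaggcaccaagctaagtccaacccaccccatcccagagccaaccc
Cldn1: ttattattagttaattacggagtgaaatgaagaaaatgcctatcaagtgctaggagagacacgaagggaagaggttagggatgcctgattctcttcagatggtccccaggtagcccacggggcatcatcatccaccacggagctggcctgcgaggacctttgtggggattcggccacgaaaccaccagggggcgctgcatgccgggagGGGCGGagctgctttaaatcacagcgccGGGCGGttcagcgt
Cldn5: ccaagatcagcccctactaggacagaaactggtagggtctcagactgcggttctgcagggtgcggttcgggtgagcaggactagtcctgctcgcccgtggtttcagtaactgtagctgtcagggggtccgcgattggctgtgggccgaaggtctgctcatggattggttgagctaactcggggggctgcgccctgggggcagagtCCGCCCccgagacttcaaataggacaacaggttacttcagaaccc

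The *Cldn4* window held 2 AP-1 matches, 1 GC box, 1 E-box and 1 ETS match. The *Cldn3* and *Cldn5* windows held 1 GC box each, and the *Cldn1* window held 2. Of 32851 RefSeq promoter windows of the same length, 6.75% held an AP-1 match, 32.7% a GC box, 17.2% an E-box and 25.7% an ETS match. An androgen receptor hexamer was found in 16.1% of all windows, a TATA box in 12.4% and a GATA site in 9.99%, and none of these letters occurred in the 4 windows printed. A match is a description of the letters only.

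**Figure D1:**
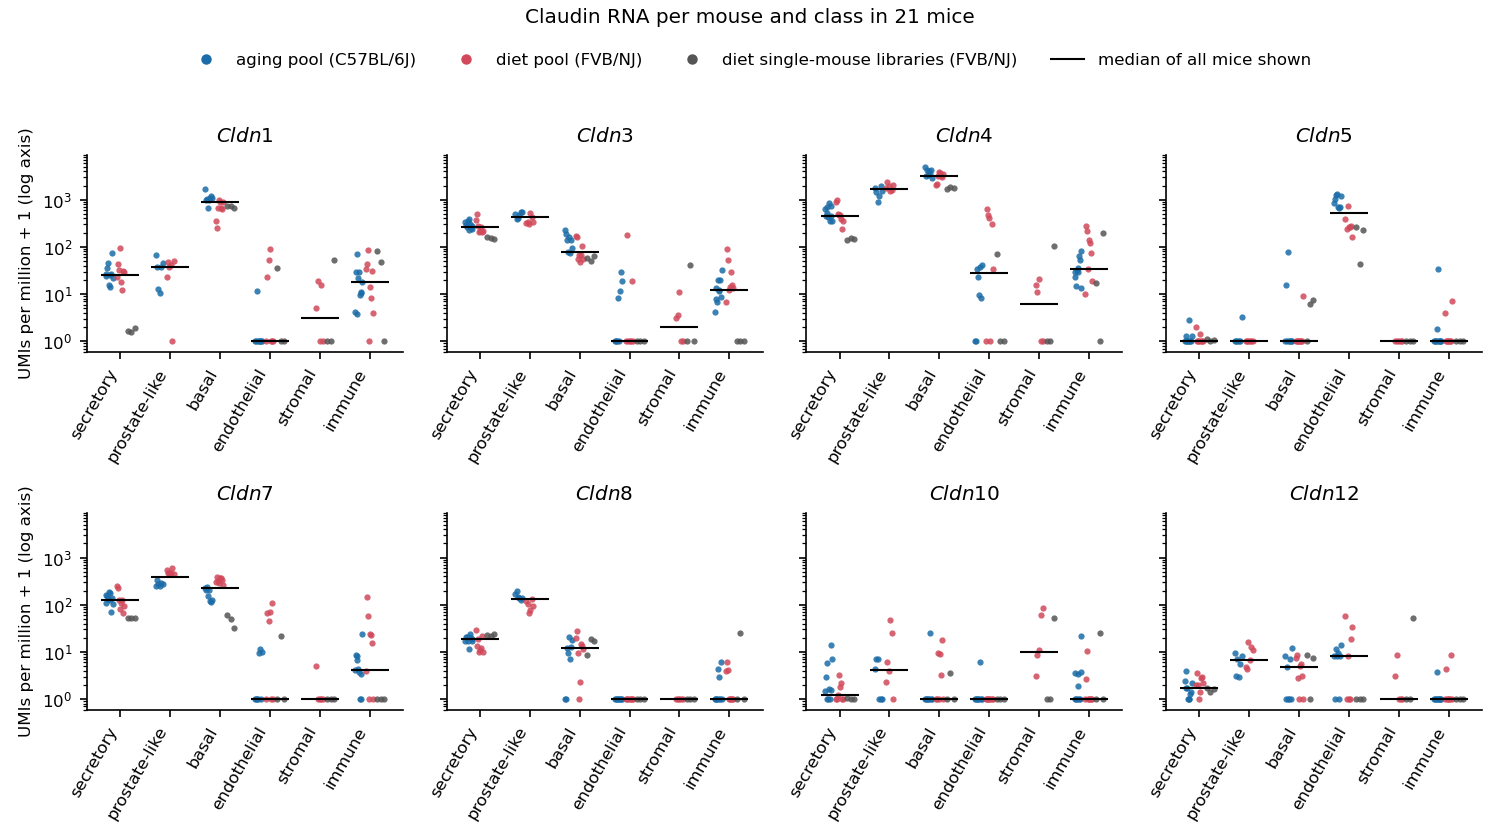
Each panel is 1 claudin, each point 1 mouse with at least 10 cells of the class, and the log axis gives CPM plus 1 in 6 classes of the 21 mice, coloured by library set, with a line at the median. *Cldn4* reached 4944 CPM in basal cells and *Cldn5* 1334 CPM in endothelial cells, and the CPM of secretory cells count *Svs* RNA in the total, which sets their place relative to other classes.

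*Cldn1*, a claudin needed for the barrier of skin, was the most basal of the 8. Its level in basal cells ran from 253 to 1646 CPM with a median of 886. In secretory cells it ran from 0.568 to 92.8 CPM with a median of 24.7, and in prostate-like cells from 0 to 65.1 CPM with a median of 37.0. The basal range lay above both luminal ranges, with no overlap. *Cldn7*, which is found along the sides of epithelial cells as well as in strands, ran from 31.7 to 382 CPM in basal cells (median 231), from 50.3 to 246 CPM in secretory cells (median 124) and from 245 to 588 CPM in prostate-like cells (median 389).

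*Cldn8*, a claudin best known from the kidney's collecting duct, was 65.5 to 193 CPM in prostate-like cells with a median of 129. It was 9.00 to 28.3 CPM in secretory cells and 0 to 27.3 CPM in basal cells, so that in CPM the prostate-like mice lay above all others. With *Svs* UMIs left out of the total, the prostate-like and secretory ranges overlapped. The lowest prostate-like level was then 65.8 (high fat mouse 1), and the highest secretory level was 73.1 (caloric restriction mouse 1). *Cldn12*, an unusual claudin that lacks the usual scaffold-binding end, stayed low, with medians of 5.91 CPM in prostate-like, 3.75 in basal and 0.751 in secretory cells. *Cldn10*, which has ion-pore isoforms, had medians of 0.207 CPM in secretory, 3.17 in prostate-like and 0 in basal cells of these 21 mice.

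A large part of these class differences depends on what a level is divided by. *Svs* RNA took 55.85% to 65.5% of the UMIs of secretory cells, which lowers the CPM of any other gene there. Leaving *Svs* UMIs out of the total is not the same scale as TMM. In the edgeR fit over mouse by class sums, TMM scaling put the median gene at 0.15 on the log2 scale for basal minus secretory, while scaling to library size put it at 2.37. For prostate-like minus secretory the median gene stood at -0.12 with TMM and at 1.99 with library size. Fold changes below are from the TMM fit, and each direction that turned under library size is named in the sentence that gives it.

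Between basal and secretory cells 6 of the 8 claudins could be tested, and all 6 passed an adjusted p of 0.05, 3 higher and 3 lower in basal cells, against 73.5% of all genes tested (40.1% higher and 33.4% lower). *Cldn1* was higher in basal cells by a log2 of 3.34 (SE 0.276, adjusted p = 2.668e-19). *Cldn4* was higher by 0.66 (SE 0.249, adjusted p = 0.01381), a call that was lost in DESeq2 (adjusted p = 0.06543), without the mouse block (adjusted p = 0.05356) and with at least 30 cells per sum (log2 0.39, adjusted p = 0.2434). *Cldn3* was lower by a log2 of -3.63 (SE 0.196, adjusted p = 4.107e-30) and *Cldn8* by -2.89 (SE 0.198, adjusted p = 1.177e-20). *Cldn7* was lower by -1.47 (SE 0.219, adjusted p = 5.122e-09), but higher by 0.71 under library size. In CPM, *Cldn7* was higher in basal cells of 15 of 19 mice, and of 6 of 19 once *Svs* UMIs were left out of the total. *Cldn5* was called higher (log2 1.79, adjusted p = 0.0139) on 20 UMIs in 1838 basal cells, with 14 of 19 mice at 0. The same 6 claudins were called when the 3 single-mouse libraries were left out. In the diet pool alone *Cldn7* (-0.48, adjusted p = 0.1063) and *Cldn5* (0.03, adjusted p = 0.9973) lost their calls. The *Cldn5* call was also lost in DESeq2, with the class limits halved, without the 5% of cells with most UMIs and with at least 30 cells per sum. The median log2 fold change of the 6 was -0.41, beside 0.15 for all genes.

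Between prostate-like and secretory cells 3 of 6 claudins passed, 1 higher and 2 lower, against 46.6% of all genes (19% higher and 27.6% lower). *Cldn8* was higher in prostate-like cells by a log2 of 0.82 (SE 0.167, adjusted p = 3.494e-05) and was higher in CPM in 12 of 12 mice, with or without *Svs* UMIs in the total. *Cldn3* was lower by -1.43 (SE 0.21, adjusted p = 1.24e-08) with TMM and higher by 0.67 under library size, and *Cldn1* was lower by -1.43 (SE 0.355, adjusted p = 0.0005153) with TMM and higher by 0.57 under library size. *Cldn4* stood at -0.36 (adjusted p = 0.3216) and *Cldn7* at -0.56 (adjusted p = 0.0566), and under library size these were 1.72 and 1.52. In CPM without *Svs* UMIs, prostate-like cells were higher in 10 of 12 mice for *Cldn4* and in 9 for *Cldn7*. They were higher in 2 of 12 for *Cldn1* and in 0 for *Cldn3*. *Cldn5* did not pass (log2 -1.11, adjusted p = 0.3963). Hence *Cldn8* was the one claudin of the 6 that was called higher in prostate-like cells under both scalings without a change of sign.

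Between prostate-like and basal cells the median gene moved little with the scaling (-0.15 with TMM and -0.27 with library size), and all 6 claudins passed, 3 in each direction, against 68.3% of all genes (30.3% higher and 38.1% lower). Higher in prostate-like cells were *Cldn8* by a log2 of 3.72 (SE 0.217, adjusted p = 1.736e-23), *Cldn3* by 2.20 (SE 0.213, adjusted p = 1.133e-15) and *Cldn7* by 0.92 (SE 0.244, adjusted p = 0.0006429), each in 12 of 12 mice. *Cldn1* was lower by -4.77 (SE 0.382, adjusted p = 1.207e-19) and *Cldn4* by -1.02 (SE 0.301, adjusted p = 0.001978), also in 12 of 12 mice. *Cldn5* was called lower (-2.90, adjusted p = 0.004851) on 4 UMIs in prostate-like cells. None of these directions turned under library size. Within the diet pool alone 3 of the 6 passed.

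**Figure D2:**
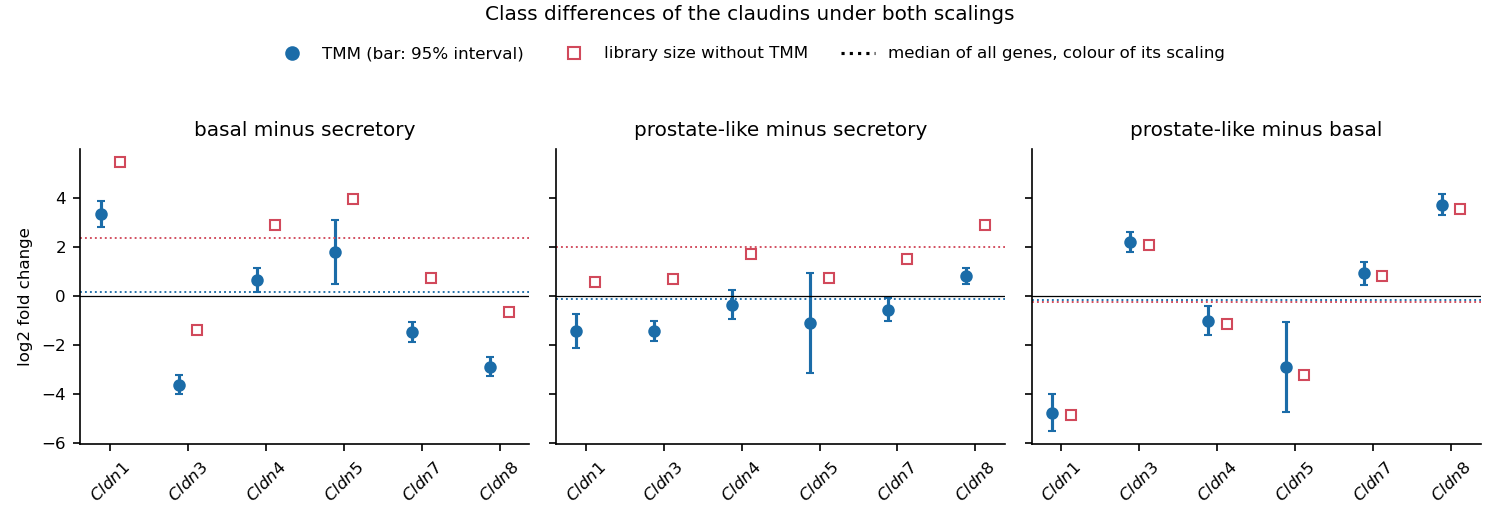
Points give log2 fold changes of the 6 tested claudins in 3 class comparisons, filled with TMM scaling (bars: 95% interval) and open with library size, and dotted lines give the median of all genes in each scaling. Against secretory cells the open points sit higher, so *Cldn7* in basal cells turned from -1.47 to 0.71 and *Cldn3* in prostate-like cells from -1.43 to 0.67, while prostate-like minus basal kept its directions.

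*Cldn5*, the main strand claudin of blood vessels and of the blood-brain barrier, was the endothelial claudin. In endothelial cells it ran from 42.3 to 1334 CPM with a median of 532.5 over 18 mice. Its highest level in any single mouse of another class was 77.7 CPM, in basal cells. The 8 aging pool mice lay at 676 to 1334 CPM and the 7 diet pool mice at 164 to 729. The 3 single-mouse libraries lay at 42.3, 226 and 260 CPM, on only 2, 4 and 15 UMIs. The lowest of these is under the level that 3 UMIs would give in that library (63.5 CPM). *Cldn5* was higher than the mean of the epithelial classes by a log2 of 8.28 (SE 0.275, adjusted p = 5.742e-41). In that comparison 6 of 6 claudins passed against 71.8% of all genes (32.7% higher and 39.1% lower), and the other 5 were lower in endothelial cells. *Cldn5* took a median over mice of 92.55% of the UMIs of the 8 claudins in endothelial cells, with a range from 21.15% to 100%. Its median share was 96.1% among aging pool mice, 71.4% among single-mouse libraries and 56.25% among diet pool mice, whose median *Cldn4* share was 35.8%. Against the epithelial mean, *Cldn4* was lower in endothelial cells by a log2 of -5.15 and *Cldn3* by -5.46. *Cldn4* still stood at a median of 307 CPM in endothelial cells of the diet pool against 15.2 CPM in those of the aging pool, beside *Epcam*, an epithelial adhesion gene, at 0 to 244 CPM over the 18 mice, and the part of epithelial RNA in that level was not tested. *Cldn8* gave 0 UMIs in 452 endothelial cells, which allows a share of cells with a UMI of up to 0.664%.

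Against the mean of stromal and immune cells, 5 of 6 claudins were higher in secretory cells (65.7% of all genes passed, 35.2% higher and 30.6% lower) and 5 of 6 in basal cells (52.6%, with 29.2% higher and 23.3% lower). The exception in both was *Cldn5* (log2 0.10, adjusted p = 0.7697, and log2 1.89, adjusted p = 0.2415). In secretory cells *Cldn3* (7.35), *Cldn7* (7.21), *Cldn8* (6.76) and *Cldn4* (6.47) led, and *Cldn1* stood at 2.39 (adjusted p = 1.996e-06). The *Cldn1* call was lost in the edgeR fit under library size (log2 0.57, adjusted p = 0.3304). In basal cells *Cldn4* (7.13), *Cldn7* (5.74) and *Cldn1* (5.73) led on the same log2 scale. Stromal sums came from 8 mice only, and *Cldn5* and *Cldn8* gave 0 UMIs in all 356 stromal cells, which allows a share of up to 0.843%.

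Detection per cell was compared after each cell was thinned to 1000 UMIs, since the median cell of the aging pool held 42580 UMIs in the secretory, 17557 in the prostate-like, 6569 in the basal and 3527 in the immune class. The 1000 UMIs include *Svs* RNA, so thinned shares of secretory cells carry the same dilution as CPM and do not follow the TMM scale. Shares are medians over mice, because the single-mouse libraries gave 8470 of the 9648 secretory cells. After thinning, *Cldn4* was seen in 83.3% of basal cells (19 mice), 58.3% of prostate-like cells (12 mice) and 30.8% of secretory cells (21 mice), against 3.85% of immune cells (21 mice), which serve as background. Before thinning those shares were 96.8%, 81.3%, 83.3% and 8.75%. *Cldn1* was seen in 45.3% of thinned basal cells, the lowest mouse at 26.2%. In thinned secretory cells it was seen in 1.92% (0% to 6.15% over mice) and in immune cells in 1.22% (0% to 8.11%), so the difference between these classes was within the spread over mice at this depth. *Cldn3* was seen in 37.8% of prostate-like, 20% of secretory and 9.09% of basal cells after thinning, although in the TMM fit *Cldn3* was lower in prostate-like than in secretory cells. *Cldn5* was seen in 16.7% of thinned endothelial cells (17 mice) and in at most 0.388% of immune cells of any mouse. At least 2 of the 8 claudins were seen in 54.1% of thinned basal, 42.1% of prostate-like and 14.6% of secretory cells.

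Without thinning, the number of UMIs per whole cell gave another order for *Cldn3*. In the aging pool the median mouse held 13.4 *Cldn3* UMIs per secretory cell (8 to 17.5, 10 mice), 10.2 per prostate-like cell (7.61 to 13.6, 6 mice) and 1.335 per basal cell (0.586 to 1.94, 8 mice). In the diet pool these medians were 8.345, 3.01 and 0.397. *Cldn4* gave medians of 23.97 UMIs per secretory, 37.0 per prostate-like and 36.2 per basal cell in the aging pool and 15.0, 15.3 and 19.5 in the diet pool, with overlapping ranges in both pools. Secretory and prostate-like ranges of *Cldn3* also overlapped in each pool, and basal cells lay below both.

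*Cldn1* in secretory cells varied with basal keratin RNA in the same cells. It was 0.568, 0.676 and 0.922 CPM in the 3 single-mouse libraries, where *Krt5* plus *Krt14* stood at 1.97 to 2.65 CPM. In the 18 mice of the pools *Cldn1* was 11.1 to 92.8 CPM and the keratins stood at 10.6 to 97.9 CPM, so neither measure overlapped between the sets. The sum of 6 basal markers in these secretory cells was 3.65 to 5.53 CPM in the single-mouse libraries and 28.1 to 343 CPM in the pools. The part of basal RNA in the secretory level of *Cldn1* was not tested.

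**Figure D3:**
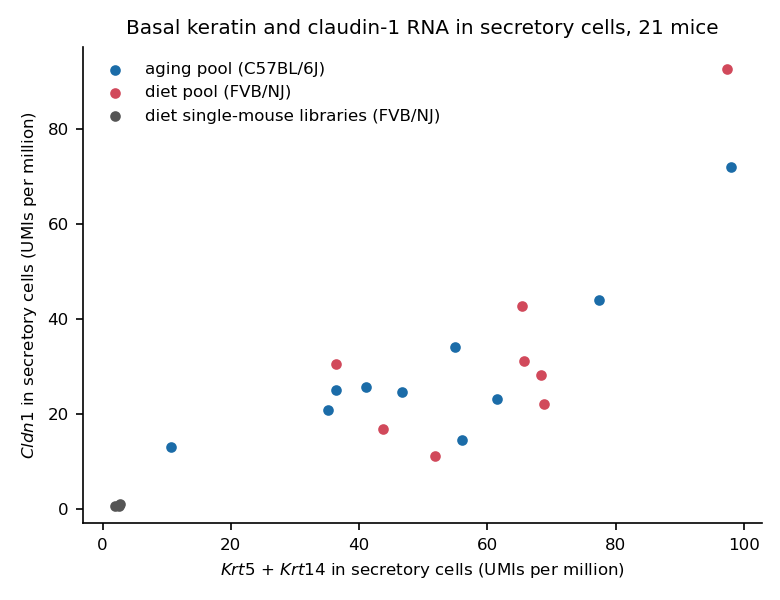
Each point is the secretory cells of 1 of the 21 mice, with *Krt5* plus *Krt14* on the x axis and *Cldn1* on the y axis, both in CPM. The 3 single-mouse libraries sit near 0 on both axes, and the highest 2 mice on both are control mouse 2 of the diet pool (92.8 CPM *Cldn1*) and 3-month mouse 1 of the aging pool (72.2 CPM).

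For 3 further members the single-mouse libraries lay below the pools in secretory cells. The share of all genes that did so was not tested. The median secretory cell of these libraries held 13111 UMIs, against 42580 (aging pool) and 26113 (diet pool). *Cldn4* was 141, 144 and 151 CPM in the 3 libraries and 236 to 981 CPM in the pools. *Cldn3* was 149, 155 and 160 CPM there and at least 201 CPM in the pools, and *Cldn7* was 50.3, 50.8 and 51.2 CPM there and at least 67.45 CPM in the pools. *Cldn8* did not follow, at 20.8, 21.4 and 23.6 CPM in the libraries and 9.00 to 28.3 CPM in the pools. In basal cells *Cldn7* was 31.7, 49.6 and 60.6 CPM there and at least 116 CPM in the pools, whereas *Cldn1* at 665, 718 and 718 CPM lay within the pool range of 253 to 1646. Whether a class difference had the same size in the aging and the diet pool was asked in 24 tests, 1 for each claudin and 3 class ratios. None passed an adjusted p of 0.05 in the exact permutation test, and 4 had an unadjusted p under 0.05. The smallest p was for *Cldn7*, whose log2 CPM ratio of basal over secretory cells averaged 0.45 ± 0.47 among the aging mice (SD, n = 8) and 1.41 ± 0.64 among the diet mice (SD, n = 8) (two-sided exact permutation p = 0.004973, adjusted p = 0.1193).

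The age comparison asked whether claudin RNA changed from 3 to 28 months in the aging pool, with rapamycin as a term. No claudin passed in basal cells (4 tested in 8 mice) or in secretory cells (6 tested in 10 mice), and 0% of all genes passed in either. In edgeR, 0 of the 4 in basal cells and 2 of the 6 in secretory cells had an unadjusted p under 0.05, and DESeq2 called 0 and 1. *Cldn10* in secretory cells was 13.1 and 5.93 CPM in the 3-month mice. It was 0.478 and 1.95 CPM at 20 months and 0 and 0.625 CPM at 28 months, and in rapamycin-treated mice it was 0 and 4.98 CPM at 20 months and 0 and 0.591 CPM at 28 months. All older mice of this pool lay below both 3-month mice, at a log2 slope of -0.17 per month (SE 0.0313, adjusted p = 0.1441, in DESeq2 -0.19 with adjusted p = 0.02342). The 3-month levels rest on 33 UMIs over 49 cells and 58 UMIs over 188 cells. Few cells held this RNA: a *Cldn10* UMI was seen in 0.301% of the 9648 secretory cells, a median of 0.787% over mice. The FVB/NJ mice of 3 months also lay below both 3-month mice of the aging pool. Their secretory *Cldn10* was 0 to 2.26 CPM in the diet pool and 0.0270 to 0.0451 CPM in the single-mouse libraries. *Cldn1* in secretory cells had a slope of -0.06 per month (SE 0.0152, adjusted p = 0.3478). Without 3-month mouse 2 the slope was -0.09. The only 3-month animal left was then 3-month mouse 1, at 72.2 CPM against a pool median of 24.9 CPM. The intervals for *Cldn4* ran from -0.02 to 0.02 per month in basal cells and from -0.03 to 0.03 in secretory cells.

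In the diet comparison no claudin passed under high fat or low protein diet in basal cells (4 tested) or secretory cells (5 tested), against 0% of all genes for high fat in both classes, 0.0491% for low protein in basal cells (0.0327% higher and 0.0164% lower) and 0% in secretory cells. In edgeR, 1 claudin had an unadjusted p under 0.05, *Cldn1* under high fat in secretory cells (log2 -1.05, adjusted p = 0.9999), and DESeq2 called none. For *Cldn4* in basal cells the 95% interval ran from -0.15 to 0.26 under high fat and from -0.25 to 0.17 under low protein diet.

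Caloric restriction came with a changed claudin mixture in basal cells. *Cldn1* was 361 and 253 CPM in the 2 restricted mice, against 660 and 982 CPM in the control mice of the same pool and 718 CPM in the control single-mouse library. *Cldn4* was 2043 and 2123 CPM under restriction, against 3198 and 3793 CPM in the pool controls and 1671 CPM in the single-mouse library. *Cldn3* was 168 and 160 CPM under restriction, against 55.3 and 66.7 CPM in the pool controls and 56.8 CPM in the single-mouse library. Restricted and control mice did not overlap for *Cldn1* and *Cldn3*, and for *Cldn4* they did not overlap within the pool. The share of all genes without such overlap was not tested. Of 4 claudins tested 3 passed, against 2.76% of all genes (0.948% higher and 1.81% lower), with *Cldn1* at a log2 of -1.34 (SE 0.226, adjusted p = 0.004413), *Cldn4* at -0.70 (SE 0.125, adjusted p = 0.0061) and *Cldn3* at 1.47 (SE 0.257, adjusted p = 0.005709). *Cldn7* stood at 0.02 (SE 0.211, adjusted p = 0.9985). The *Cldn3* call was lost with the limits of the class rules doubled (0.13, adjusted p = 0.9499), without restricted mouse 1 (1.40, adjusted p = 0.05612) and without control mouse 1 (1.33, adjusted p = 0.1286).

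Other RNA moved in the same basal sums. *Krt5* plus *Krt14* stood at 1880 and 2006 CPM in the restricted mice against 2983 and 3307 CPM in the pool controls. The summed level of the 6 basal markers was 3394 and 3958 CPM against 6392 and 6909 CPM. *Tgm4* plus *Pbsn*, which define prostate-like cells, stood at 784 and 569 CPM against 134 and 38.1 CPM, and the 6 stromal markers at 375 and 125 CPM against 28.6 and 57.2 CPM. The part of these in the claudin values was not tested. The sums came from 86 and 42 restricted and from 273 and 22 pool control cells.

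**Figure D4:**
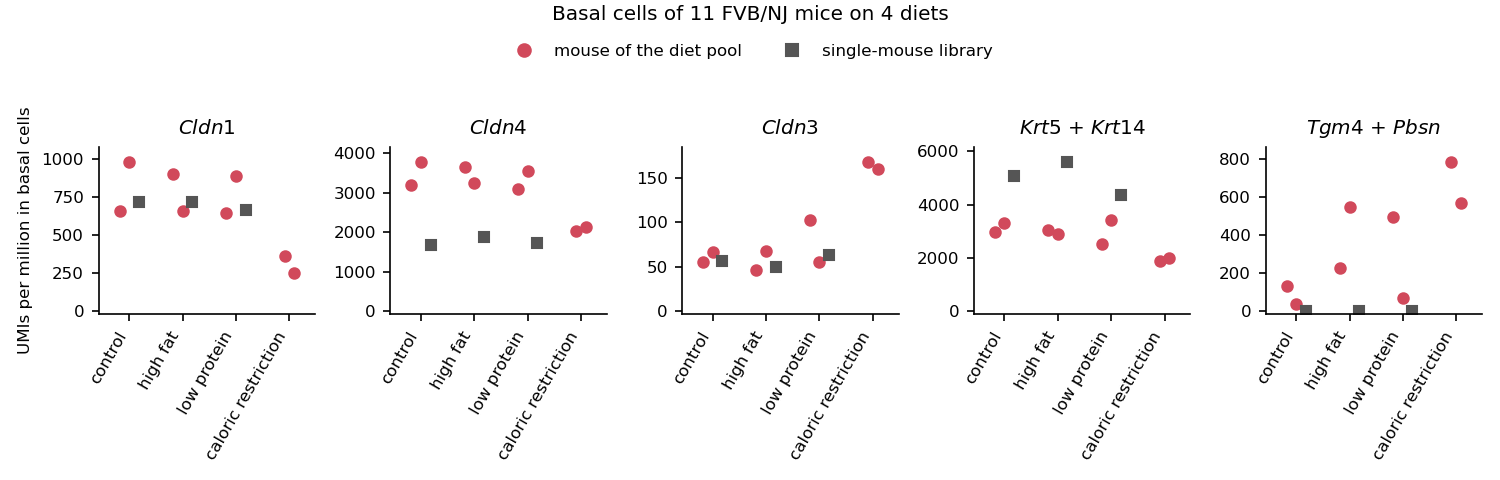
Each point is the basal cells of 1 of 11 FVB/NJ mice, in CPM, circles for the diet pool and squares for single-mouse libraries. Under caloric restriction *Cldn1* (361 and 253) and *Krt5* plus *Krt14* (1880 and 2006) lay lowest, and *Cldn3* (168 and 160) and *Tgm4* plus *Pbsn* (784 and 569) lay highest.

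In secretory cells of the restricted mice no claudin passed, against 1.56% of all genes (0.505% higher and 1.05% lower), while 3 of 5 had an unadjusted p under 0.05 in edgeR and DESeq2 called 1. *Cldn4* was 901 and 981 CPM under restriction and 493 and 466 CPM in the pool controls (log2 0.63, SE 0.208, adjusted p = 0.1653). *Cldn7* was 246 and 226 CPM against 125 and 81.45 CPM (log2 0.74, SE 0.224, adjusted p = 0.1235). Both restricted mice lay above all 9 others for these genes, and the share of all genes with that order was not tested. Under library size, which moved the median gene to 0.41, *Cldn3* (0.81), *Cldn4* (1.08) and *Cldn7* (1.18) passed.

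The young and old individuals had a different set in their luminal cells. *Cldn10* was 152.5 CPM (95% Poisson interval 144.5 to 160.9) in principal-like cells of the young and 261 CPM (253.9 to 267.9) of the old individual. In basal cells of the same mice it was 1.94 and 5.36 CPM, and in clear-like cells 51.7 and 40.8 CPM. *Cldn10* gave 11.9% of the claudin UMIs of principal-like cells, beside at most 1.04% in secretory cells of any of the 21 mice. It was seen in 19.4% of principal-like cells thinned to 1000 UMIs, against 2.87% of clear-like, 0.275% of basal and 0.617% of immune cells, whose median depths before thinning were 7348, 2343, 2071 and 1391 UMIs. The intervals cover counting error only.

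*Cldn4* in basal cells was 3035 CPM in the young and 3757 CPM in the old individual, *Cldn1* was 745 and 924 CPM, and *Cldn3* was 50.7 and 49.6 CPM. In principal-like cells *Cldn4* was 805 and 664.5 CPM, *Cldn7* 614 and 488 CPM and *Cldn3* 389.5 and 345 CPM. In clear-like cells *Cldn4* was 1615 and 1581 CPM, *Cldn7* 817 and 665.5 CPM and *Cldn3* 676 and 590 CPM. *Cldn5* in endothelial cells was 934 and 955.5 CPM. With 1 mouse at each age, the difference between young and old has no replicate check.

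All 8 claudins could be tested between these classes, with the 2 mice as blocks. Principal-like against basal cells gave 5 calls of 8 against 63.4% of all genes, with *Cldn10* (log2 6.10, SE 0.287, adjusted p = 1.465e-07), *Cldn3* (3.13, SE 0.152) and *Cldn7* (2.08, SE 0.138) higher and *Cldn1* (-3.29, SE 0.182) and *Cldn4* (-1.95, SE 0.154) lower. Clear-like against basal cells gave 5 calls of 8 against 26.3%, with *Cldn10* at 3.40 (SE 0.413, adjusted p = 0.0002973), *Cldn3* at 3.36, *Cldn7* at 1.94, *Cldn1* at -4.68 and *Cldn4* at -1.39. Clear-like against principal-like cells gave 3 calls of 8 against 35.2%, with *Cldn10* lower (-2.70, SE 0.279, adjusted p = 7.159e-05), *Cldn1* lower (-1.39, adjusted p = 0.001331) and *Cldn4* higher (0.56, adjusted p = 0.01679, in DESeq2 0.05232). *Cldn7* in that comparison stood at -0.13 with TMM and at 0.43 under library size.

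**Figure D5:**
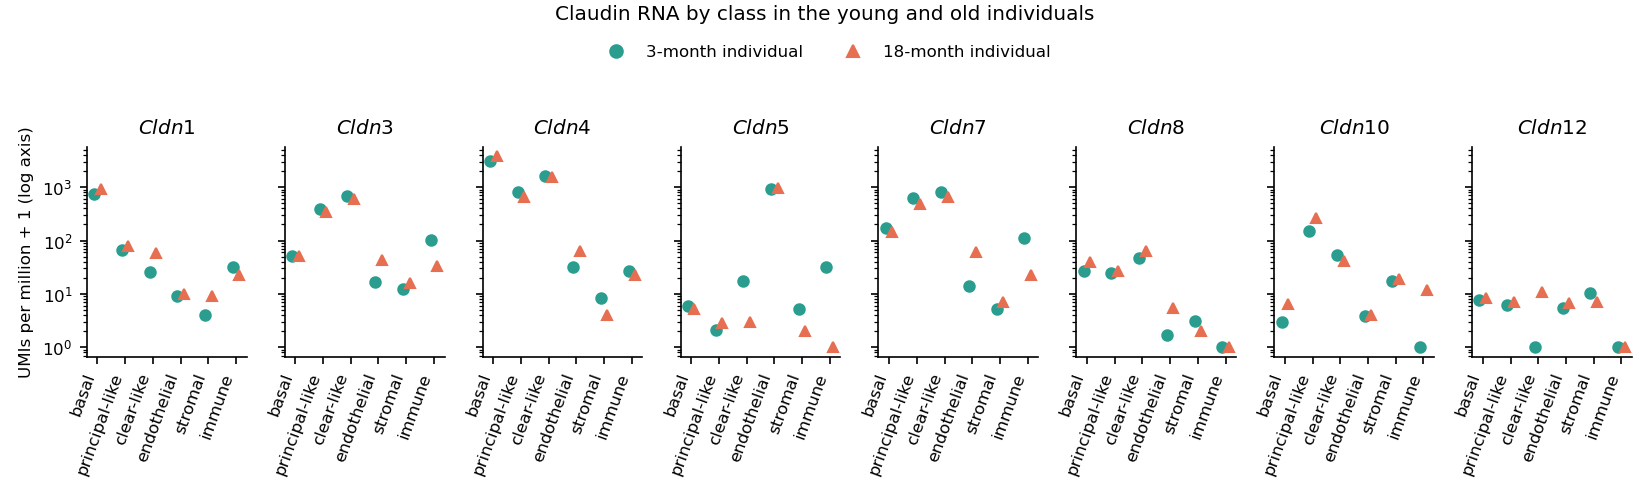
Each panel is 1 claudin, with CPM plus 1 on a log axis in 6 classes, a circle for the 3-month and a triangle for the 18-month individual. *Cldn10* stood highest in principal-like cells (152.5 and 261 CPM), *Cldn1* and *Cldn4* in basal cells and *Cldn5* in endothelial cells.

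Basal cells are the epithelial class that these individuals share with the other FVB/NJ single-mouse libraries. Against the 3 diet libraries, 3 of 5 claudins were higher in the young and old individuals and 26% of all genes passed (13.4% higher and 12.6% lower). *Cldn4* was 3035 and 3757 CPM against 1671, 1741 and 1890 CPM (log2 0.97, SE 0.131, adjusted p = 0.0001683). *Cldn7* was 168.5 and 144 CPM against 31.7, 49.6 and 60.6 CPM (log2 1.69, SE 0.209, adjusted p = 8.113e-05). *Cldn8* was 26.2 and 38.4 CPM against 7.58, 15.8 and 18.3 CPM (log2 1.31, adjusted p = 0.02155), a call lost in 4 of the 5 fits that left out 1 library, with log2 values of 0.90 without the control library, 1.57 without the high fat library, 1.36 without the low protein library and 1.03 without the old individual, and also in DESeq2 (1.29). None of these groups overlapped, and the share of all genes without overlap was not tested. *Cldn1* stood at 0.27 (adjusted p = 0.1622) and *Cldn3* at -0.14 (adjusted p = 0.6215). The young individual is of the same age and diet as the control library and lay above all 3 libraries for *Cldn4*, *Cldn7* and *Cldn8*. Library and type of epithelium cannot be told apart in this comparison.

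The other genes of the tight junction followed the claudins only in part. Of 45 such genes, 44 were found and 21 could be tested in the class fits. Between basal and secretory cells 16 were higher in basal cells and 2 lower (40.1% and 33.4% of all genes), with a median log2 of 1.11 beside 0.15 for all genes. The scaffold *Mpdz* was higher by 2.17, while the junction linker *Cgnl1* (-2.67) and the polarity gene *Crb3* (-1.69) were lower. In prostate-like against secretory cells 5 were higher and 3 lower (19% and 27.6% of all genes), with *Mpdz* at 1.44, *Magi3* at 1.05, *Cgnl1* at -2.98 and *Crb3* at -0.61. These directions hold for TMM only. In CPM the *Crb3* medians were 115 in prostate-like, 38.1 in basal and 32.8 in secretory cells, the other way round. Those of *Cgnl1* were 6.50, 6.53 and 13.0, the same way. In prostate-like against basal cells 2 were higher (*Crb3* 1.08, *Pard6b* 0.73) and 11 lower (30.3% and 38.1% of all genes), with *Cdh5* at -2.80. In endothelial cells 9 were higher (32.7% of all genes), led by the vessel cadherin *Cdh5* (8.46) and the junctional adhesion molecule *Jam2* (6.65), and 10 lower (39.1% of all genes), led by *Pard6b* (-5.53) and *Epcam* (-5.31). Against stromal and immune cells 15 were higher and 3 lower in secretory cells (35.2% and 30.6% of all genes), with *Crb3* at 7.16 above and *Jam3* at -3.15 and *Jam2* at -2.80 below. In basal cells 16 were higher and 2 lower (29.2% and 23.3% of all genes), with *Epcam* at 6.59, *Jam3* at -1.96 and *Jam2* at -1.80.

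Under caloric restriction 3 of 18 genes of the list passed in basal cells, all lower (1.81% of all genes were lower), among them *Epcam* (-0.82, SE 0.174, adjusted p = 0.01539). None of the list passed in the age, high fat or low protein fits, nor in secretory cells under restriction. In basal cells of the young and old individuals against the diet libraries 4 of 18 were higher and 1 lower (13.4% and 12.6% of all genes), with the tricellular gene *Ildr2* at 3.14, the strand protein *Ocln* at 0.97 and the epithelial cadherin *Cdh1* at -0.46.

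Further claudins of the list marked the luminal cells of the young and old individuals. *Cldn2*, a pore-forming claudin, was 375 CPM in the young and 357 CPM in the old in principal-like cells, and 10.7 and 17.0 CPM in basal cells. *Cldn14* was 162 CPM in principal-like cells of both and 0.972 and 3.35 CPM in basal cells. *Cldn6*, best known from embryonic epithelium, was 53.75 and 62.1 CPM in clear-like cells and at most 0.194 CPM in principal-like and basal cells. *Cldn9* was 51.7 and 27.2 CPM in clear-like cells and at most 0.447 CPM in those others. *Cldn16* was 10.9 and 7.59 CPM in basal cells and 0 in both luminal classes. Among 36 genes of the list tested, 7 were higher and 21 lower in principal-like than in basal cells (31.6% and 31.8% of all genes). In clear-like against basal cells 12 were higher and 8 lower (11.9% and 14.4% of all genes), and in clear-like against principal-like cells 17 were higher and 2 lower (16.9% and 18.3% of all genes). The leading differences were *Cldn14* (6.53) and *Cldn2* (5.06) for principal-like cells and *Cldn6* (8.55) and *Cldn9* (6.59) for clear-like cells, each against basal cells.

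The genes whose level ran most like a claudin over 99 mouse by class sums of the 21 mice were named by Spearman correlation over 10759 genes. The sums share libraries and differ in depth, so these are descriptions. *Cldn4* ran closest to *Krt8* (0.942), *Krt18* (0.940) and *Epcam* (0.926). *Cldn3* ran closest to *Smim22* (0.888), *Gnmt* (0.886) and *Rab25* (0.881). *Cldn7* ran closest to *Rasef* (0.887), *Crb3* (0.884) and *Esrp1* (0.881), and *Cldn8* to *Tspan1* (0.864), *Slco4c1* (0.856) and *Smim22* (0.848). *Cldn1* was nearest to *Cdh1* (0.813), *Itgb6* (0.808) and *Lgals7* (0.804). For *Cldn5* the nearest were the vessel genes *Gpihbp1* (0.813), *Btnl9* (0.801) and *Sox17* (0.795). For the low *Cldn12* the values reached only 0.559 with *Zfp9*, 0.553 with *Mboat1* and 0.547 with *Cobll1*, and for the low *Cldn10* they were 0.491 with *Slc25a23* and 0.481 with *Cacnb3*.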

How the data were processed

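The authors aligned 10x 3′ libraries (kit V2) to mm10 with Cell Ranger, version 6.0.1 for the pools per the labels, and deposited UMI counts per cell for 23 mice. From these counts, genes were joined by Ensembl identifier (597 had another symbol). Cells with at least 500 genes, 200 UMIs and at most 10% mitochondrial UMIs (the methods give 1%, read as 10%) were kept, 40306 of 53352. A cell took the class of the 1 rule it met, 712 meeting several were left out in place of a doublet caller, and 14538 met none. UMIs were summed per mouse and class (at least 10 cells).

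Sums were tested in edgeR 4.0.16 (R 4.3.3) with filterByExpr, TMM, the quasi-likelihood test and Benjamini-Hochberg adjustment over all genes tested, with the mouse as block between classes, age and rapamycin as terms in the aging pool, and pool or single-mouse library as block for diets. The fits were tested on simulated data. Pool differences used two-sided exact permutation tests. Alternatives covered scaling, filters, class limits, DESeq2 1.42.0, left-out mice and library sets. *Cldn25* of the tight junction list was not found. The claudins, lists and class rules were chosen with earlier results of these data known. Named genes were the 8 claudins, per contrast the 2 largest rises and falls past the threshold in the tight junction list, and per claudin the 3 genes nearest in Spearman correlation. Some genes that this rule names are not reported here. P-values measure the spread between these mice.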

Additional observations from a re-analysis of the deposited data

Results flagged for a closer look

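Of 33 groups of 4 to 10 mice examined, 3 held a mouse far from the rest by Dixon's criterion, where chance gives about 1 in 20. In secretory cells *Cldn1* stood at 72.2 CPM in 3-month mouse 1 of the aging pool, whose nearest neighbour stood at 44.1 CPM and whose pool had a median of 24.9 CPM. It stood at 92.8 CPM in control mouse 2 of the diet pool (18 cells), where the nearest mouse stood at 42.8 CPM. Both mice also had the highest *Krt5* plus *Krt14* of their pool in secretory cells, 97.9 and 97.3 CPM. In endothelial cells *Cldn5* stood at 729 CPM in control mouse 1 of the diet pool (36 cells), where the nearest mouse stood at 389 CPM and the pool median was 267 CPM. Control mouse 2 of that pool stood at 1877 CPM on 26 UMIs (95% Poisson interval 1226 to 2750) and was not among these groups because it had 7 cells.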

How the results depend on the processing

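Of 1268 values of single claudins under 42 alternative settings, 1210 kept their side of the threshold with no turn of a called value. Another 26 lost a call, 25 gained one and 7 turned. The 1210 include 64 small values that changed sign without a call in either fit. The 7 that turned were, under library size without TMM, *Cldn7* in basal minus secretory (0.71), *Cldn1* (0.57), *Cldn3* (0.67), *Cldn4* (1.72) and *Cldn7* (1.52) in prostate-like minus secretory and *Cldn7* in clear-like minus principal-like cells (0.43), and, in the 3 diet single-mouse libraries alone, *Cldn1* in secretory minus stromal and immune cells (-2.11, 2 claudins tested). Library size changes no counts, only the divisor. Counts of claudins called moved as follows. In the 3 diet single-mouse libraries alone 2 of 2 tested passed for basal minus secretory, 1 for secretory minus stromal and immune and 2 for basal minus stromal and immune. In the diet pool alone 3 passed for prostate-like minus basal. Without the filter on low counts 1 passed for age in basal cells, 2 for age in secretory cells, 1 for high fat in secretory cells and 1 for caloric restriction in secretory cells. DESeq2 gave 1 for age and 1 for caloric restriction in secretory cells. Library size gave 3 for caloric restriction in secretory cells and 7 for clear-like minus principal-like. Leaving out 1 mouse at a time gave 0 to 1 for age in secretory cells, the 1 being *Cldn1* without 3-month mouse 2, and 2 to 3 for caloric restriction in basal cells. The cause of these shifts was not tested.

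Counts over all genes also moved. They were 5545 for basal minus secretory against 1154 to 8989 under the alternatives, 3518 against 2302 to 6752 for prostate-like minus secretory, 5156 against 3693 to 7874 for prostate-like minus basal, 4960 against 840 to 7701 for secretory and 3965 against 545 to 5283 for basal minus stromal and immune cells. For age they were 0 against 0 to 35 in basal and 0 to 156 in secretory cells. For diets they were 0 against up to 22 and 3 against up to 38 in basal cells (high fat and low protein), 0 against up to 21 and up to 35 in secretory cells, 169 against 50 to 327 for caloric restriction in basal cells and 111 against 55 to 286 in secretory cells. The basal comparison of single-mouse libraries gave 1612 against 1062 to 2126. Classes were compared with the mouse as block, and without it *Cldn4* in basal minus secretory (0.65) and *Cldn5* in prostate-like minus basal cells (-2.09) lost their calls. Between ages, diets and libraries no paired analysis was possible because the labels give the mice no shared replicate numbers. Sums of at least 10 cells came from 8 mice for stromal, 12 for prostate-like, 18 for endothelial and 19 for basal cells.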

Other observations

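*Cldn10* was also found in cells of the 21 mice that met no class rule. These 7082 cells held 664 *Cldn10* UMIs, in 290 cells. Of them, 78 cells in 16 mice held at least 2 UMIs and 452 of the UMIs together. *Msln* (mesothelin) and *Upk3b* (a uroplakin) stood at 203 and 544 CPM in these 78 cells and at 2.08 and 3.69 CPM in unassigned cells without *Cldn10*. *Atp6v1g3*, a proton pump subunit, stood at 488 against 5.08 CPM. *Msln* or *Upk3b* was seen in 22 of the 78 cells and *Atp6v1g3* in 14, with 0 cells holding both kinds and 42 holding neither. The cells with *Cldn10* were deeper, at a median of 8150 UMIs against 1982, and these genes were picked after their values were seen, so the values are a description.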
